A study of Mus musculus with 6 samples.

Results

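Integrin subunits were followed in mouse preimplantation embryos in which the transcription factor TEAD4 had been partly depleted, and in 2 control groups. The study calls that depletion substantial but incomplete. The 10 genes are Itga2, Itga3, Itga5, Itga6, Itga7, Itgav, Itgb1, Itgb3, Itgb4 and Itgb5, out of 30176 genes measured on the arrays. They were taken by symbol, each as the brightest array row that carries its symbol alone, and each of the 10 had 1 such row. Integrins are receptors of the cell surface, each built of an α and a β chain, which bind proteins of the extracellular matrix outside the cell and attach to the actin cytoskeleton inside it. The chains decide the ligand: some pairs bind fibronectin or vitronectin through a short Arg-Gly-Asp motif, others bind laminin or collagen. In the mouse embryo, integrins are known for the attachment of the trophectoderm, the outer epithelium of the blastocyst, at implantation, and for the basement membrane contacts of the inner cells.

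Zygotes of the cross B6C3F1 x CD1 received mCherry-Trim21 mRNA together with dextran beads in the ooplasm, either with nothing more (the mCherry-Trim21 mRNA group), with an antibody to GFP (anti-GFP) or with an antibody to TEAD4 (anti-TEAD4). TRIM21 is a ubiquitin ligase that binds antibodies and sends what they hold to the proteasome, so that all 3 groups carried the ligase. The mCherry-Trim21 mRNA group received no antibody. RNA was taken 72 h after injection, at 4 days post coitum (96 h of culture). The embryos were lysed in 2 pools of 10 per group (replicates a and b), with 1 Affymetrix array per pool. The labels describe normal blastocyst cavities in both control groups, and an absent, small or aberrant cavity with anti-TEAD4. They call the control pools blastocysts and the anti-TEAD4 pools morulae or blastocysts, so the labelled stage differs between the groups. A pool of whole embryos mixes cell types, and fewer cells of a type and less RNA per cell cannot be told apart in it. No label says that the 2 pools of a group came from separate litters or injection sessions, so the tests measure only the spread between these pools.

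The 6 arrays differed in ways that touch every gene below. The anti-TEAD4 replicate a stood apart: its median log2 intensity over all genes was 4.83, against 4.62 to 4.68 on the other arrays, and its mean correlation with them was 0.975, against 0.986 to 0.989. Among the 1716 olfactory and vomeronasal receptor genes, which are known from the sensory epithelia of the nose and here mark background, its median was 4.01, against 3.68 to 3.82 elsewhere. The 95th percentile of the mean intensities of these receptor genes, 4.53, served as the threshold for dim genes, and 16094 genes lay above it. Of the integrin subunits, 7 of 10 lay above it, while Itga2, Itga7 and Itgb3 lay below. The 10 trophectoderm markers (Krt8, Krt18, Cdx2, Gata3 and others) were summed on the linear scale, in arbitrary units (AU, 2 to the power of the log2 intensity). The sum lay between 290800 and 297400 AU on the 4 control arrays and was 38140 AU for anti-TEAD4 replicate a. For anti-TEAD4 replicate b it was 72990 AU. The keratins Krt8 and Krt18 made up 90.6% to 91.7% of the sum on every array.

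Of the integrin subunits, Itgb5, Itgav and Itga5 were the 3 whose mean log2 intensity lay furthest below the controls with anti-TEAD4, and the other 7 lay between 0.17 below and 0.36 above them. Only for Itgb5 and Itgav did both anti-TEAD4 pools lie below all 4 control pools. With limma, no integrin subunit passed an adjusted p under 0.05 in any of the 4 comparisons, nor did any other gene: 0 of 30176 genes (0%) were called in each. At an unadjusted p under 0.05, limma took 1 of the 10 subunits, Itgb5, in each of the 3 anti-TEAD4 comparisons, where the share of all genes was 6.51% with mCherry-Trim21 mRNA as the reference, 6.6% with anti-GFP and 8.51% with both controls. It took 0 of 10 with anti-GFP against mCherry-Trim21 mRNA (1.09%). The methods' t-test, run on linear intensities, called 0 of the 10 after Benjamini-Hochberg adjustment in any comparison. Both anti-TEAD4 pools lay below all control pools for 2 of 10 subunits, against 7.68% of all genes and 12.5% of the genes above the dim threshold. They lay above all control pools for 0 of 10, against 11.4% of all genes and 7.81% of the genes above the dim threshold.

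**Figure D1:**
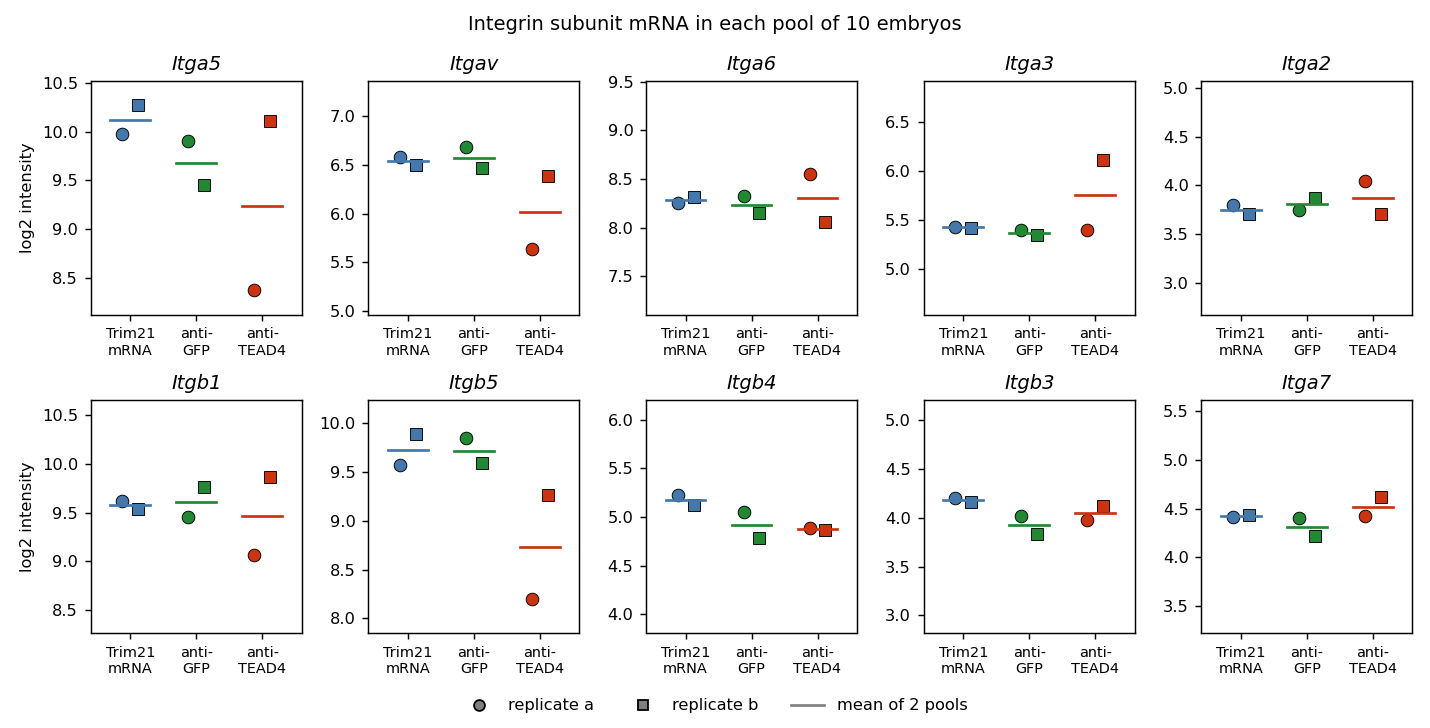
Log2 intensity of each integrin subunit (vertical axes, all spanning the same number of log2 units) in every pool of 10 embryos, by group on the horizontal axis. Circles are replicate a, squares replicate b and lines the mean of the 2 pools. Itgb5 and Itgav are low in both anti-TEAD4 pools, whereas the anti-TEAD4 pools of Itga5 differ by −1.74 (a minus b).

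The first set of subunits is that of the receptors for Arg-Gly-Asp ligands. Itgb5 encodes a β chain that pairs with the product of Itgav alone to form a vitronectin receptor. Its log2 intensities were 9.57 and 9.89 (mCherry-Trim21 mRNA), 9.85 and 9.59 (anti-GFP), and 8.20 and 9.27 (anti-TEAD4) (replicates a and b in this order, here and below). Both anti-TEAD4 pools were lower than every control pool, replicate a by far the more, while the control groups overlapped. On the linear scale the means were 855 ± 134 AU with mCherry-Trim21 mRNA, 847 ± 108 AU with anti-GFP and 456 ± 229 AU with anti-TEAD4 (SD, n = 2 pools each). The log2 fold change was −0.99 ± 0.32 (SE) against both control groups, with a 95% confidence interval of −1.79 to −0.19. With mCherry-Trim21 mRNA as the reference it was −0.995, with anti-GFP it was −0.985, and the controls differed from each other by −0.01. The adjusted p from limma was 0.523 in the first of these 3 comparisons, 0.737 in the second and 0.738 in the last, so that the difference did not pass although the interval excludes 0.

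Itgav encodes the α chain of the vitronectin receptors, the partner of the Itgb5, Itgb3 and Itgb1 products. Its log2 intensities were 6.58 and 6.50 (mCherry-Trim21 mRNA), 6.68 and 6.47 (anti-GFP), and 5.64 and 6.39 (anti-TEAD4). Replicate a with anti-TEAD4 was clearly below the controls, and replicate b was lower than the lowest control pool by less than the control pools differed among themselves, 0.21. The log2 fold change was −0.54 ± 0.23 (SE, 95% interval −1.13 to 0.04) against both control groups, and limma's adjusted p was 0.594. In linear units the 3 group means were 93.1 ± 3.65, 95.6 ± 9.82 and 66.9 ± 24.0 AU (SD, n = 2 pools each; mCherry-Trim21 mRNA, anti-GFP, anti-TEAD4).

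Itga5 encodes the α chain of the classical fibronectin receptor. Its log2 intensities were 9.98 and 10.27 (mCherry-Trim21 mRNA), 9.90 and 9.45 (anti-GFP), and 8.37 and 10.11 (anti-TEAD4). The anti-TEAD4 pools lay on opposite sides of the control mean, replicate a below every control pool and replicate b within their range. The log2 fold change was −0.66 ± 0.49 (SE, 95% interval −1.88 to 0.56) against both control groups, with an adjusted p of 0.686 (limma). It was −0.89 against mCherry-Trim21 mRNA but −0.44 against anti-GFP, since the anti-GFP pools themselves lay below both mCherry-Trim21 mRNA pools, by 0.45 on average.

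Itgb1, the β chain that pairs with the products of Itga2, Itga3, Itga5, Itga6, Itga7 and Itgav, had log2 intensities of 9.62 and 9.54 (mCherry-Trim21 mRNA), 9.45 and 9.76 (anti-GFP), and 9.06 and 9.86 (anti-TEAD4). One anti-TEAD4 pool was below all controls and the other above them, and the group means differed by −0.13 ± 0.25 (SE, 95% interval −0.76 to 0.50). Itgb3, another β partner of the Itgav product and best known from platelets, lay below the dim threshold in every group, at 4.20 and 4.16, then 4.02 and 3.83, then 3.98 and 4.12. Both of its anti-TEAD4 pools fell inside the range of the controls. Of the β chains that pair with Itgav and lay above the dim threshold, Itgb5 and Itgb1, only Itgb5 was thus below the controls in both pools.

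RefSeq windows of 250 bases before and 50 after an annotated start (build GRCm38.p6) were at hand for 6 of the 10 genes, 7 windows in all. The Itgav start used lies inside the annotated gene, chr2:83722303-83806917, and both Itga3 starts lie inside theirs. The Itgav window is thus not that at the outer end of the gene. Of the Itga3 windows, that at chr11:95076665-95076964 spans the outer end of the gene, at 95076844, and the other does not. The 250 bases before the start are printed for Itgb5 and Itgav, the pair that was low in both anti-TEAD4 pools, and for Itgb1, the only one of the 6 genes whose window holds the core letters of the TEAD motif. Sequences run 5′ to 3′, capitals mark GGAATG, and all 3 lie on the plus strand, at chr16:33829415-33829664 (Itgb5), chr2:83724147-83724396 (Itgav) and chr8:128685404-128685653 (Itgb1).
Itgb5: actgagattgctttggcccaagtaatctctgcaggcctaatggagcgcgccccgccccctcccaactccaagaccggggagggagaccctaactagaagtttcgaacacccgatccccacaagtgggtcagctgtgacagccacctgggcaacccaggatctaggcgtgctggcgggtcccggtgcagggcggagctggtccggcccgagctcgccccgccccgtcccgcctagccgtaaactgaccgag
Itgav: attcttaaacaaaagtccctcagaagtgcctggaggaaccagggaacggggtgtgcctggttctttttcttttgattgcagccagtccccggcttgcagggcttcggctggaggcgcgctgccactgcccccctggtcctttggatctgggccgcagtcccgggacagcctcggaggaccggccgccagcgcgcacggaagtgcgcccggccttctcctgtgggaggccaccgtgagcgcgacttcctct
Itgb1: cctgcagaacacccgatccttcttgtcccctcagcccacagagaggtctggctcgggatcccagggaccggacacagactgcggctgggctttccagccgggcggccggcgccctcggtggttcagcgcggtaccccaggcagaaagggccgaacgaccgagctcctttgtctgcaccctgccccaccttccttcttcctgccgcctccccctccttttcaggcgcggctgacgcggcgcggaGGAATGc

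The letters GGAATG, or CATTCC on the other strand, occurred once in the 7 windows, in Itgb1, beginning 7 bases before the start. They occurred in 14.7% of the 32851 windows of this length. The windows of Itgb5, Itgav, Itga5, Itga2 and Itga3 did not hold these letters, which says only that they are absent from these windows. TGANTCA, the motif of the AP-1 factors (its own reverse complement), occurred once, in 1 of the 2 Itga3 windows, 12 bases after its start, and in 7.81% of all windows.

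The second set is that of the laminin receptors and the collagen receptor. Itga3 encodes an α chain of laminin receptors of epithelia. Its log2 intensities were 5.43 and 5.42 (mCherry-Trim21 mRNA), 5.40 and 5.34 (anti-GFP), and 5.40 and 6.11 (anti-TEAD4). Replicate b with anti-TEAD4 was alone above the controls, which spanned 0.09, and replicate a lay among them. The log2 fold change against both control groups was 0.36 ± 0.22 (SE, 95% interval −0.19 to 0.91), with an adjusted p of 0.658 (limma).

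Itga6, the α chain of a laminin receptor that pairs with the products of Itgb1 and Itgb4, had log2 intensities of 8.25 and 8.31 (mCherry-Trim21 mRNA), 8.32 and 8.15 (anti-GFP), and 8.55 and 8.06 (anti-TEAD4). The 2 anti-TEAD4 pools lay on either side of all control pools, replicate a above and replicate b below, and their mean differed from that of the controls by 0.05 ± 0.18 (SE, 95% interval −0.40 to 0.49). Itgb4, whose product joins that of Itga6 in hemidesmosomes, lay near the dim threshold at 5.23 and 5.12 (mCherry-Trim21 mRNA), 5.05 and 4.78 (anti-GFP), and 4.89 and 4.87 (anti-TEAD4). Both antibody groups were below both mCherry-Trim21 mRNA pools, and the anti-TEAD4 pools lay within the anti-GFP range.

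Itga7, known as the laminin receptor chain of muscle, lay below the dim threshold, at 4.41 and 4.43 (mCherry-Trim21 mRNA), 4.40 and 4.22 (anti-GFP), and 4.42 and 4.62 (anti-TEAD4). Itga2, a collagen receptor chain, also lay below it, at 3.80 and 3.70, then 3.75 and 3.87, then 4.04 and 3.70. For both genes 1 anti-TEAD4 pool was above all controls and the other was among them. Their log2 fold changes against both control groups were 0.16 ± 0.14 and 0.09 ± 0.15 (SE). Centring each array on the receptor genes, an alternative chosen after seeing the data, turned these differences to −0.068 for Itga2 and −0.0025 for Itga7, and that of Itga6 to −0.11. Median centring also turned the signs of Itga2 and Itga6, and quantile normalization that of Itga2.

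**Figure D2:**
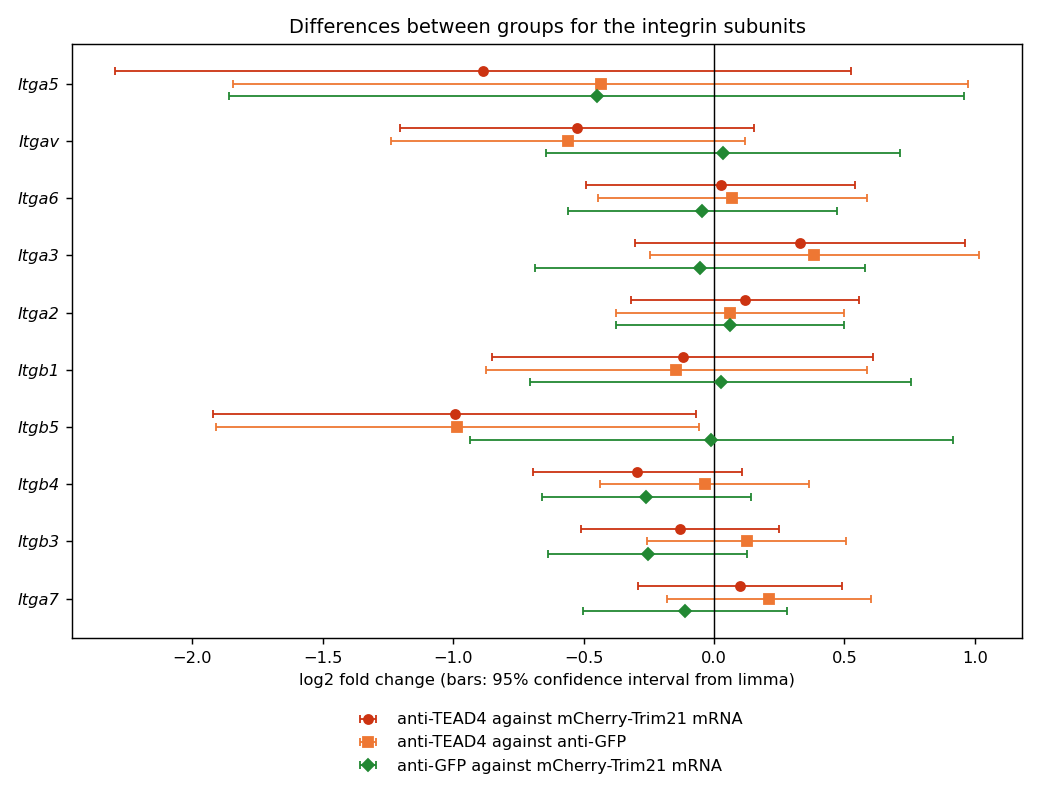
Log2 fold change of each integrin subunit (horizontal axis) in 3 comparisons of groups, with 95% confidence intervals from limma as bars. The 2 intervals of Itgb5 with anti-TEAD4 are the only ones in the plot that leave out 0, and no adjusted p was under 0.05.

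Most of the 10 genes differed more between the 2 anti-TEAD4 pools than within either control group, with Itgb3 (−0.14) and Itgb4 (0.02) as exceptions. The absolute difference between replicates a and b had a median of 0.60 over the 10 genes with anti-TEAD4, against 0.20 with anti-GFP and 0.08 with mCherry-Trim21 mRNA. Over all genes above the dim threshold the corresponding medians were 0.45, 0.22 and 0.18, so the wider spread with anti-TEAD4 was general. Replicate a minus replicate b was −1.74 for Itga5, −1.07 for Itgb5, −0.80 for Itgb1, −0.75 for Itgav and −0.71 for Itga3, but 0.49 for Itga6 and 0.34 for the dim Itga2. It was −0.20 for Itga7. A difference of at least 1 between the 2 pools, seen for 2 of the 10 subunits (Itga5 and Itgb5), occurred for 20.0% of the genes above the threshold with anti-TEAD4, 2.39% with anti-GFP and 2.11% with mCherry-Trim21 mRNA. The 2 anti-TEAD4 pools stood on opposite sides of the control mean for Itga2, Itga5, Itga6, Itgb1 and Itgb3. How often this occurred over all genes was not counted.

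Replicate a lay below all controls for 4 subunits (Itga5, Itgav, Itgb1, Itgb5) and above them for 2 (Itga2, Itga6), beside 28.7% and 40.6% of all genes. Replicate b lay below all controls for 3 (Itga6, Itgav, Itgb5) and above them for 3 (Itga3, Itga7, Itgb1), beside 18.5% and 26.3% of all genes. The trophectoderm markers had a median difference from the control mean of −2.45 in replicate a, compared with −1.47 for replicate b. Of the 10, 7 were lower in replicate a and 3 (Gata3, Tfap2c, Tspan8) in replicate b. Their part in the differences between the pools was not tested.

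**Figure D3:**
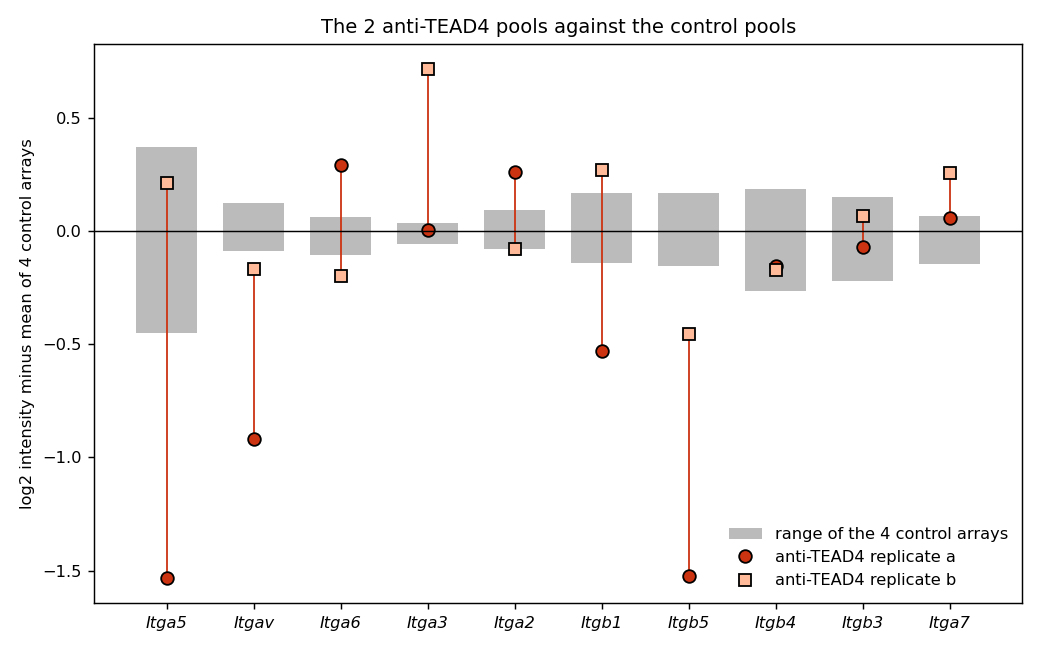
Log2 intensity of the 2 anti-TEAD4 pools minus the mean of the 4 control pools (vertical axis) for each integrin subunit. Grey boxes give the range of the 4 control pools. Replicate a of Itga5 lies at −1.53 and replicate b at 0.21, while both pools of Itgb5 (−1.53 and −0.46) and Itgav (−0.92 and −0.17) lie below the boxes.

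Since 1 pool carried much of the difference, the tests were repeated without each array. Without anti-TEAD4 replicate b, limma called 3 of the 10 subunits lower, Itga5, Itgav and Itgb5, in each anti-TEAD4 comparison. In that setting the lone remaining pool is taken to vary like the pools of the other groups, and many other genes were called too: 9.43% of all genes with mCherry-Trim21 mRNA as the reference, 9.26% with anti-GFP and 13.3% with both controls. Against both control groups the log2 fold changes of Itgb5, Itga5 and Itgav were then −1.53, −1.53 and −0.92, with adjusted p of 0.0178, 0.0223 and 0.0275. Without replicate a they were −0.46, 0.21 and −0.17, with 0 of 10 subunits called by limma. The sign of Itga5 therefore depended on which pool was kept, and those of Itgb5 and Itgav did not.

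The control groups were compared in the same way. Both anti-GFP pools lay below both mCherry-Trim21 mRNA pools for 5 of 10 subunits (Itga3, Itga5, Itga7, Itgb3 and Itgb4), against 11.3% of all genes, and above them for 0 of 10, against 17.4%. The sizes were 0.06 to 0.45 on the log2 scale, the largest for Itga5, and each adjusted p from limma was 1. Anti-GFP replicate b held the lowest control value for 7 of the 10 subunits, a count that was not made over all genes. Its median difference from the control mean over the 10 was −0.12, and that of anti-TEAD4 replicate a was −0.11. The single differences were unlike, from −0.45 to 0.17 in anti-GFP replicate b and from −1.53 to 0.29 in anti-TEAD4 replicate a. The median log2 fold change over the subunits, whose differences had both signs, was −0.07 for anti-TEAD4 against both control groups, beside 0.06 over all genes and −0.05 over the genes above the dim threshold. It was −0.0062 when anti-TEAD4 replicate a was left out, −0.11 when replicate b was, −0.18 after median centring and −0.23 after centring on the receptor genes.

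Genes were ranked by likeness after leaving out the members, predicted and clone-named genes and small RNAs. Those whose values ran closest to Itgb5 over the 6 arrays, by the Euclidean distance of values centred on their mean, were Gnptab, Mvd and Pak4. Gnptab, which encodes subunits of the enzyme that tags lysosomal enzymes with mannose phosphate, was at a distance of 0.118 (Pearson r = 0.998) and had a log2 fold change of −0.93 against both control groups. Mvd, an enzyme of the mevalonate pathway, followed at 0.152 and Pak4, a kinase that acts on the actin cytoskeleton, at 0.189. For Itga5 the nearest were Mllt1 (0.173), Hs1bp3 (0.183) and Rptor (0.193), a subunit of the mTOR complex. Rptor lay between 7.84 and 8.60 in the controls and was 6.72 and 8.37 with anti-TEAD4, the same split between the 2 anti-TEAD4 pools as that of Itga5. These likenesses are descriptions over 6 arrays that all these genes share.

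Genes that act with integrins were set beside them. A list of activators and adhesion adaptors, which also holds other regulators such as Itgb1bp1, Sharpin and Src, had 22 genes. Of these, 21 were measured and 20 lay above the dim threshold. Their median log2 fold change against both control groups was −0.27. At an unadjusted p under 0.05 (limma), 4 were lower and 0 higher, beside 8.51% of all genes in either direction. None passed after adjustment. The 4 were Fermt2 (kindlin-2, an activator that binds the β tail), Vcl (vinculin), Actn4 (an actin crosslinker) and Ilk (an adaptor that links integrins to parvin and actin). Fermt2 had log2 intensities of 8.63 and 8.85, 9.14 and 8.99, then 7.42 and 8.32 with anti-TEAD4. Vcl had 8.67 and 9.02, 8.87 and 8.37, then 7.87 and 7.93, and was thereby low to nearly the same degree in both anti-TEAD4 pools. The log2 fold changes were −1.03 ± 0.27 for Fermt2, −0.83 ± 0.20 for Vcl, −0.95 ± 0.28 for Actn4 and −0.90 ± 0.34 for Ilk (SE), with limma's adjusted p between 0.412 and 0.584. The largest difference of the list was that of Tns3, a tensin of adhesion sites, at −1.06 ± 0.43, but 1 of its anti-TEAD4 pools reached into the control range. Both anti-TEAD4 pools lay below all controls for 5 of the 21 genes, beside the 7.68% of all genes and 12.5% of genes above the threshold given before.

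Among 17 other integrin subunits, most of them known from leukocytes or from tissues formed later, 16 were analysed and 3 of them lay above the dim threshold. Itga1 was left out because its array row also carries the symbol Pelo. Their median was 0.06, with 0 called by limma at an unadjusted p under 0.05 against both control groups, beside 8.51% of all genes. The 3 with the largest differences, Itgad, Itga9 and Itga8, were at 0.25, 0.22 and 0.15 and all lay below the threshold.

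Of 17 listed ligands, 15 were measured, with a median of 0.03. Lamb2, a laminin β chain, was the only one with an unadjusted p under 0.05 against both control groups. It was 5.69 and 5.63 (mCherry-Trim21 mRNA), 5.90 and 5.58 (anti-GFP), and 4.68 and 5.07 (anti-TEAD4), both anti-TEAD4 pools being below all controls. Its log2 fold change was −0.83 ± 0.18 (SE), and its adjusted p 0.365 (limma). Lama5, an α chain of laminins that the Itga3 and Itga6 products bind, differed by more, −1.10 ± 0.45, but its replicate b, 9.27, was inside the control range of 9.23 to 9.87. In the other direction, Lamb1 (0.38 ± 0.17), another laminin β chain, and Col4a2 (0.29 ± 0.15), a chain of basement membrane collagen, had both anti-TEAD4 pools above all controls, Lamb1 by a narrow margin (8.71 in both pools, highest control 8.70). Both were picked out after their values were seen. Hspg2, the basement membrane proteoglycan perlecan, differed by −0.59 ± 0.24, its replicate b lying inside the control range. At an unadjusted p under 0.05 (limma), 1 ligand was higher with anti-GFP as the reference and 0 with both controls. The shares of all genes called, in either direction, were 6.6% and 8.51%.

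All 6 listed partners of integrins in the membrane or the hemidesmosome were measured, with a median of −0.09. Cd9, a tetraspanin that binds integrins, was lower in both anti-TEAD4 pools (11.98 and 12.22) than in any control pool (12.42 to 13.31), with a log2 fold change of −0.70 ± 0.19. Cd81, a tetraspanin too, had 10.57 and 11.08 with anti-TEAD4, above all controls (9.41 to 10.50), and differed by 0.65 ± 0.33. Plec, the linker of the Itgb4 product to keratin filaments, differed by −0.52 ± 0.21, its replicate b reaching into the control range. None of the 6 passed after adjustment in limma.

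**Figure D4:**
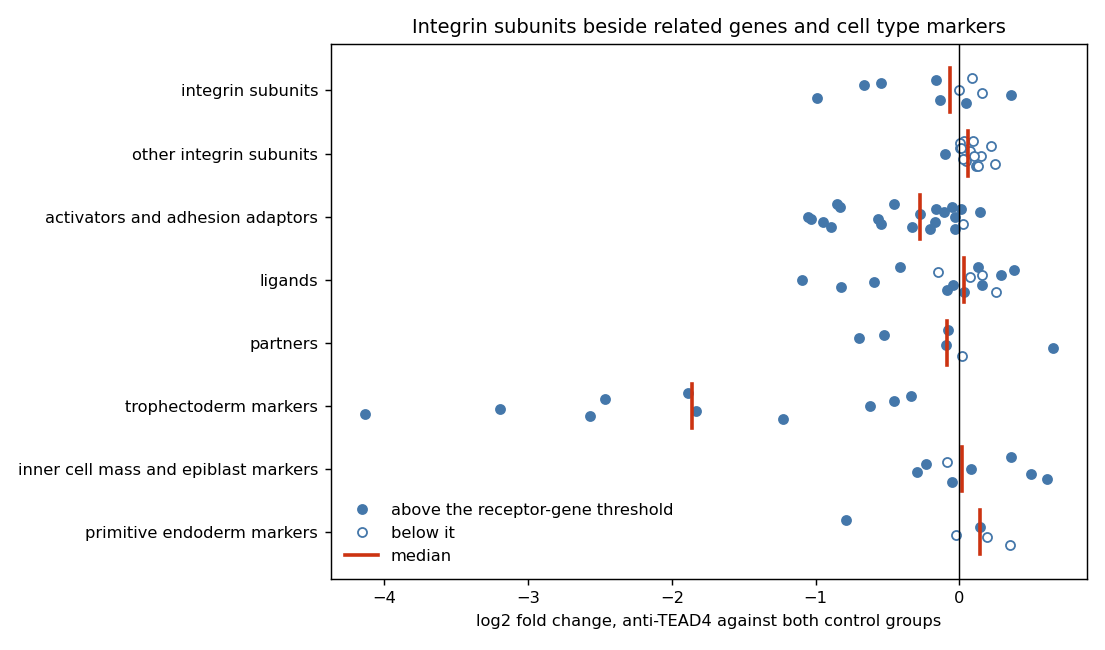
Log2 fold change of anti-TEAD4 against both control groups (horizontal axis) for the genes of each list, the integrin subunits on top. Each circle is a gene, filled where its mean lies above the dim threshold (receptor-gene threshold), and red bars are medians. The median of the integrin subunits is −0.07, that of the activators and adaptors −0.27 and that of the trophectoderm markers −1.86.

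The cell type markers give the setting of these values. Of 10 trophectoderm markers, 9 were lower with anti-TEAD4 against both control groups at an unadjusted p under 0.05 (limma). Over all genes 8.51% were called in either direction. The median log2 fold change of the 10 was −1.86. This list was chosen with earlier results of these data known, and it leaves out Eomes, which the study names as an exception to the lower trophectoderm markers. Of 8 markers of the inner cell mass and epiblast, 1 was higher and 0 were lower at this threshold, beside the same 8.51%. Their median was 0.02. Whether the share of trophectoderm cells or RNA set the level of any integrin subunit was not tested. The arrays measure mRNA and hold no value for integrin protein or for its place at the cell surface.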

How the data were processed

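Per the study's methods, the authors normalized the arrays by robust multiarray averaging in the Affymetrix Expression Console and deposited log2 intensities. The deposited column of mCherry-Trim21 mRNA replicate a holds log2 intensities like the others, but was recorded as a score because 1 cell is far too high for that scale. That row was left out and the rest used as log2 intensities. Of the 65955 remaining, 30637 carry 1 symbol, giving 30176 genes (brightest row each, Gata3 from a row with several symbols). For arrays, the number of arrays limits the precision. limma 3.58.1 in R 4.3.3 fitted 3 group means to the 6 arrays (3 residual and 2.517 prior degrees of freedom), with Benjamini-Hochberg adjustment over all genes and no filter. Descriptions used Python 3.11.15 with pandas 2.3.3. The steps were tested on simulated data. The members and lists were chosen with earlier results of these data known. All 10 subunits are named, and from the other lists the genes with an unadjusted p under 0.05 against both control groups or the 3 with the largest differences. Alternatives were leaving out each array, the replicate letter as a block, fitting only the groups compared, an intensity trend, quantile normalization and median centring. Further ones were a filter on dim genes, averaging the rows of a gene, testing every row, and the t-test named in the study's results. That t-test used equal variances, linear intensities and thresholds of 0.01 and, after Benjamini-Hochberg, 0.05. Centring on receptor genes was chosen after seeing the data.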

Additional observations from a re-analysis of the deposited data

How the results depend on the processing

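With 2 pools per group, limma passed 0 of 10 subunits in all 4 comparisons, and this held under every alternative except leaving out 1 array: over the arrays left out, the count ran from 0 to 3 in each anti-TEAD4 comparison, the 3 (Itga5, Itgav, Itgb5) coming without anti-TEAD4 replicate b. The replicate block changed no call (Itgb5 −0.99 against both control groups, adjusted p 0.625). No label says that the letters a and b pair the pools. Same-letter deviations correlated at −0.51, 0.21 and −0.25 between groups, which with 2 pools per group cannot show or exclude a pairing. Itgb5, Itgav and Itgb4 kept their sign against both control groups under every alternative, and Itga3 ran from 0.0025 (without anti-TEAD4 replicate b) to 0.71. Depth does not apply to arrays, and Itga2, Itga7 and Itgb3 lay near the receptor genes, where small differences follow the scaling. The cause of the changes below was not tested.

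Scaling moved the median of all genes for anti-TEAD4 against both control groups from 0.06 to −0.05 (median centring), −0.0058 (quantile normalization) and −0.10 (receptor genes). The median over the subunits went to −0.24 (median centring) and −0.30 (receptor genes) against mCherry-Trim21 mRNA, to −0.10 and −0.13 against anti-GFP, and to −0.18 and −0.23 against both control groups. Leaving out arrays, it ran from −0.24 to −0.055 against mCherry-Trim21 mRNA and from −0.14 to −0.023 for anti-GFP against mCherry-Trim21 mRNA.

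The following differences changed sign with the scaling, none of them past the threshold. For anti-TEAD4 with mCherry-Trim21 mRNA, anti-GFP or both as the reference, in this order, centring on receptor genes gave −0.05, −0.085 and −0.068 for Itga2 and −0.15, −0.075 and −0.11 for Itga6. It gave Itga7 −0.07 against mCherry-Trim21 mRNA and −0.0025 against both, and Itgb3 −0.02 against anti-GFP. Median centring gave Itga6 −0.085, −0.04 and −0.063, Itga2 −0.05 against anti-GFP and −0.02 against both, and Itga7 −0.01 against mCherry-Trim21 mRNA. Quantile normalization gave Itga2 −0.017, −0.058 and −0.038, Itga7 −0.037 against mCherry-Trim21 mRNA, and Itgb1 0.019 for anti-TEAD4 against anti-GFP and −0.039 for anti-GFP against mCherry-Trim21 mRNA.

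Leaving out arrays gave these ranges, in the same order of references. Itga2 ran from −0.05 to 0.29, −0.11 to 0.23 and −0.08 to 0.26. Itga6 ran from −0.22 to 0.27, −0.18 to 0.32 and −0.20 to 0.29, and Itgb1 from −0.52 to 0.28, −0.55 to 0.26 and −0.53 to 0.27. Itga5 had a range of −1.31 to 0.44 with anti-GFP as the reference and of −1.53 to 0.21 with both, passing at the lower end only. Itga3 ran from −0.025 to 0.69 against mCherry-Trim21 mRNA, Itgb4 from −0.17 to 0.10 against anti-GFP, and Itgb3 from −0.073 to 0.068 against both. For anti-GFP against mCherry-Trim21 mRNA, Itga6 ran from −0.13 to 0.04, Itgav from −0.07 to 0.14, Itgb1 from −0.13 to 0.18 and Itgb5 from −0.17 to 0.15.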
